A study of Mus musculus with 12 samples.

Results

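Taurine-treated orthotopic lung tumours of mice were compared with untreated ones by RNA sequencing, over every gene that passed a filter on low counts. The comparison takes 6 of the 12 libraries of the series, the 3 whose treatment label reads Taurine and the 3 whose label reads Model. Of 36254 genes in the deposited table, 23191 passed the filter and were tested. The sample names give C57 mice, and all 6 libraries share the tumour, which was grown inside the lung. The dose, route and duration of taurine, what Model mice received in its place, the cells that were implanted and the age and sex of the mice were not stated in the labels. The other 6 libraries, 3 of proline-treated tumour (Proline) and 3 of normal lung (Control), entered the same fit and share its estimate of the spread. Nothing in the labels ties a replicate to its own mouse, and the p-values rest on the spread between these libraries, which may be technical.

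Taurine is a sulphur-containing amino acid that is not built into proteins. Cells make it from cysteine or take it up through the transporter Slc6a6. In most tissues it serves as an osmolyte that helps to set cell volume, in the liver it is joined to bile acids, and in mitochondria it is attached to certain transfer RNAs that decode mitochondrial messages. Tumours and lymphocytes both draw on extracellular taurine, and this comparison asks which transcripts differed between tumours with and without the added amino acid.

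The libraries differed from each other in transcripts of neighbouring tissues and in small non-coding RNAs, and these differences come before the results because they touch them. Values are CPM, counts per 1000000 after scaling between libraries with edgeR's TMM method. Alb, the serum albumin of hepatocytes, had 0, 0.108 and 0.197 CPM in the Taurine libraries and 76.2, 95.5 and 0 CPM in the Model libraries. Kap, an androgen-regulated kidney gene, had 29.2, 33.0 and 2.24 CPM in Taurine and 0.786, 0.803 and 33.2 CPM in Model. Krt13, a keratin of stratified squamous epithelium, had 0.219, 0.185 and 187.8 CPM in Taurine and 0.0463, 94.8 and 0.142 CPM in Model. The summed level of the 15 liver genes was 84.96, 57.7 and 92.8 CPM in Taurine and 270.0, 339 and 68.1 CPM in Model, and that of the 12 kidney genes 69.0, 76.4 and 15.0 CPM in Taurine and 12.2, 10.6 and 82.7 CPM in Model. Liver transcripts were thus highest in Model 1 and 2, kidney transcripts in Taurine 1, Taurine 2 and Model 3, and squamous transcripts in Taurine 3 and Model 2. The summed level of 14 skeletal muscle genes was 502.5, 152.1 and 4586 CPM in Taurine and 1102, 218 and 64.3 CPM in Model, so it was highest in Taurine 3. Bpifa1, a secreted protein of the upper airway, stood at 98.8 CPM in Model 2 and at 3.45 CPM or less in the other 5 libraries. The thymocyte recombinase gene Rag1 was read at 2.74 and 0.473 CPM in Model 1 and 2 and had 0 counts in Model 3 and in all 3 Taurine libraries. Small non-coding RNAs were lowest in Model 1 and 2. Rn7sk, an RNA that holds back transcription elongation, had 2.18, 9.0 and 10.4 CPM in Taurine and 0.756, 0.129 and 7.83 CPM in Model. Rn7s1, an RNA of the signal recognition particle, had 4.88, 15.3 and 10.5 CPM in Taurine and 0.617, 0.846 and 11.7 CPM in Model, and Rpph1, the RNA of ribonuclease P, had 1.71, 5.16 and 2.43 CPM in Taurine and 0.139, 0.0860 and 1.23 CPM in Model, with separate groups. The part of these tissues and RNAs in each result below was not tested unless a value is given.

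**Figure D1:**
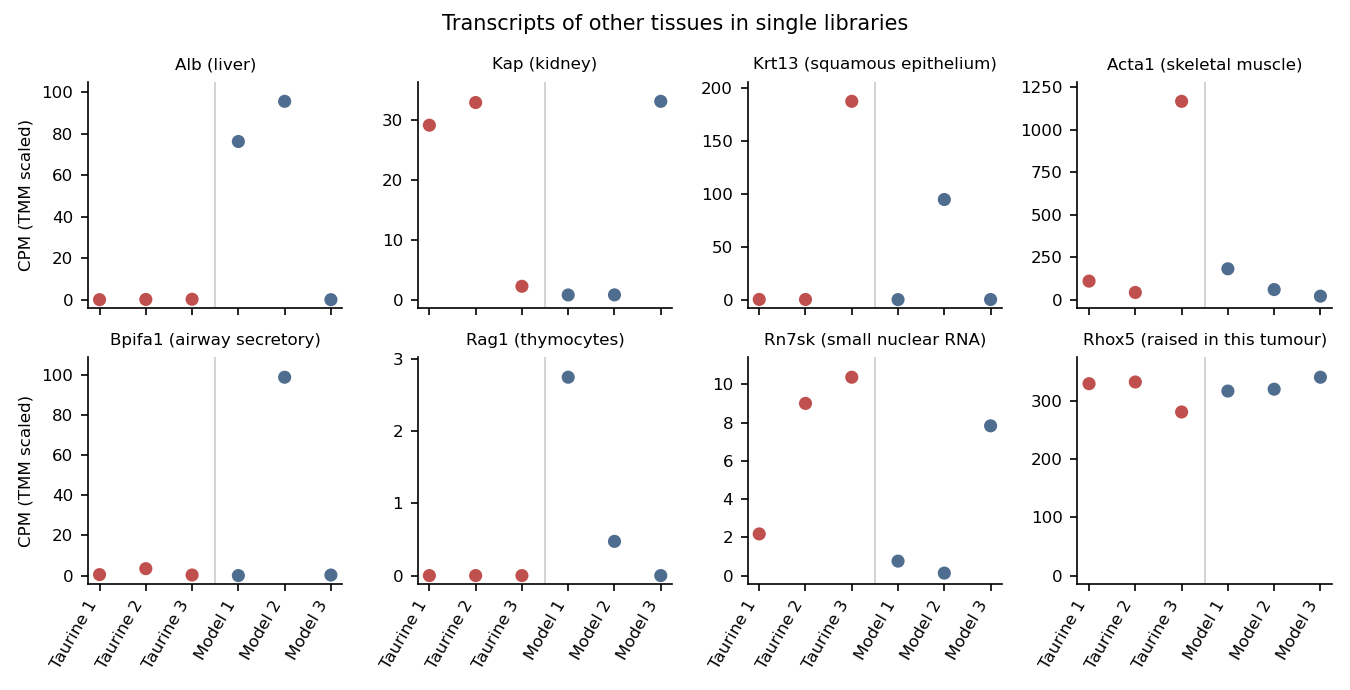
CPM of 8 genes in each of the 3 Taurine libraries (red, left) and the 3 Model libraries (blue, right), 1 point per library, linear axes from 0. Alb stands out in Model 1 and 2, Kap in Taurine 1, Taurine 2 and Model 3, Krt13 in Taurine 3 and Model 2 and Acta1 in Taurine 3, Rn7sk is lowest in Model 1 and 2, and Rhox5 is level across the 6 libraries.

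Genes that set this tumour apart from normal lung were high in all 6 libraries. Hmga2, a fetal chromatin protein, had 541, 644 and 554 CPM in Taurine and 422, 462 and 519.6 CPM in Model, against 0.288 CPM or less in normal lung. Rhox5, a homeobox gene on the X chromosome, averaged 315 ± 29 CPM in Taurine and 326 ± 12.9 CPM in Model (SD, n = 3 each), against 0.458 ± 0.611 CPM in normal lung. The epithelial adhesion gene Epcam was nearly absent, at 0.549 ± 0.172 CPM in Taurine and 1.33 ± 1.24 CPM in Model, where normal lung had 65.4 ± 1.99 CPM. The surfactant gene Sftpc, the defining marker of alveolar type 2 cells, was at 22.9, 1.02 and 0.544 CPM in Taurine and 0.0617, 0 and 3.66 CPM in Model, against a mean of 16050 CPM in normal lung. Genes raised in this tumour thus marked all 6 libraries, and the lung's own epithelial markers were far below normal lung. Total counts were 65509069 to 67107116 per Taurine library and 62579271 to 67174761 per Model library. Over the tested genes, the libraries correlated with each other at 0.942 to 0.967, and Taurine 3 was the least like the others. The first principal component of the 6 libraries held 30.3% of the variance and set Taurine 1, Taurine 2 and Model 3 against Taurine 3, Model 1 and Model 2, which is also the split by kidney transcripts. The second held 23.4% and placed Model 1 and 2 (70.8 and 71.8) far from Model 3 (−3.45) and from the Taurine libraries (−18.8 to −81.1).

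No gene passed the threshold in taurine-treated against untreated tumours. By edgeR's quasi-likelihood test with Benjamini-Hochberg adjustment, 0 of 23191 genes (0%) had an adjusted p under 0.05, and the smallest adjusted p was 0.145. At an unadjusted p under 0.05 stood 1574 genes (6.79%), 763 higher (3.29%) and 811 lower (3.5%) in Taurine. The 3 Taurine values all lay above the 3 Model values for 1314 genes (5.67%) and all below them for 1429 genes (6.16%), 11.8% in all. Log2 fold changes over all tested genes had a median of 0.0032. Nothing below is therefore called changed against Model, and each count of list members with separate groups stands against these shares of all genes. By DESeq2, an alternative count model, 88 genes (0.398% of those with an adjusted p) passed, 46 higher and 42 lower, while voom with library weights called 0. Of the 88 genes, 45 had a mean under 1 CPM, 30 had 0 counts in all libraries of 1 group and 75 had separate groups. Among them were genes named below, such as Cdc42ep2 (DESeq2 adjusted p = 4.9e-07), Cdc42se1 (1.34e-05), Marco (0.00328) and Hbb-bs (0.0127).

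The intervals show how large an effect could have gone unseen. Among 11628 genes with a mean of at least 5 CPM, the 95% interval of the fold change lay within 2-fold in either direction for 10887 genes (93.6%) and within 1.5-fold for 9080 (78.1%). For the 4831 genes with at least 50 CPM these shares were 98.2% and 94.5%. Only 28 of those 4831 genes had a fold change beyond 2-fold, whatever their error.

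**Figure D2:**
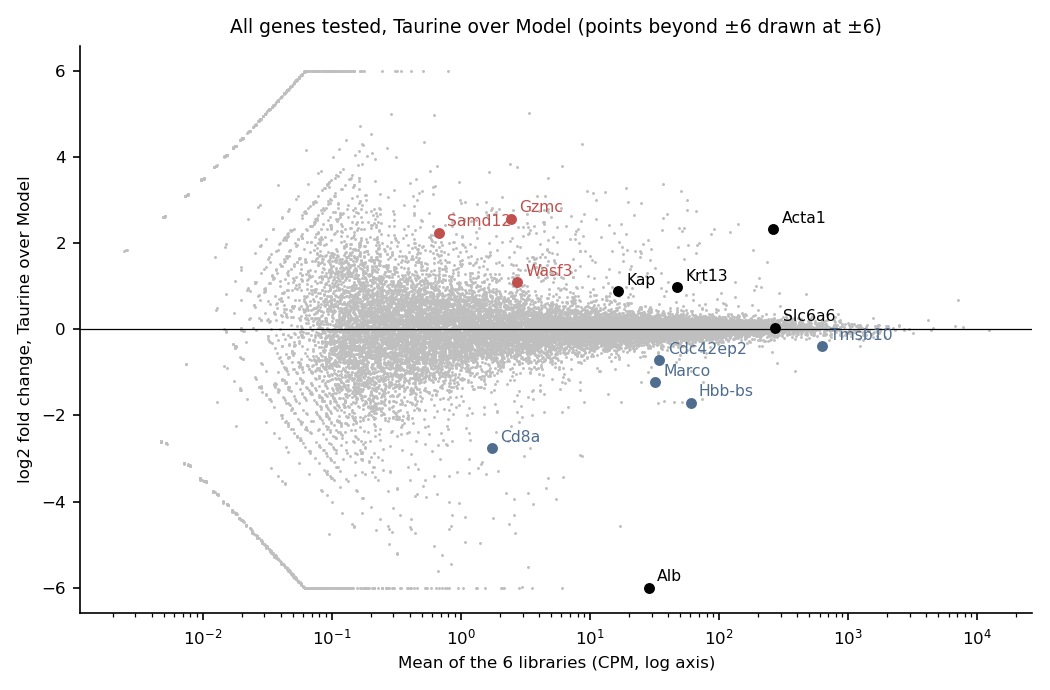
Log2 fold change of Taurine over Model for every tested gene against its mean level over the 6 libraries (CPM, log axis). Each grey point is a gene and none passed the threshold. Named genes are red where higher and blue where lower in Taurine, and black for the taurine transporter Slc6a6, which lies at 0.04, and for 4 tissue genes, of which Alb lies beyond −6.

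Genes that make, move or use taurine had a median near their untreated level, with members from −1.41 to 1.25 on the log2 scale. All 18 members of the list passed the filter, 0 had separate groups, 9 lay above 0 (background 50.5%) and 9 below (background 47.9%), and their median log2 fold change was −0.012. Slc6a6, the taurine transporter, had 272, 260.0 and 287 CPM in Taurine and 258, 288 and 249.5 CPM in Model. Its log2 fold change of 0.04 had a 95% interval of −0.14 to 0.23, and the groups overlapped. Cdo1, cysteine dioxygenase, which opens taurine synthesis, was the only member at an unadjusted p under 0.05. It had 1.74, 1.83 and 3.26 CPM in Taurine and 4.92, 6.54 and 2.34 CPM in Model, a log2 fold change of −1.01 (95% interval −1.80 to −0.23, adjusted p = 0.705). Its 2 high Model values were those of the libraries with the most liver transcripts, and Model 3 lay inside the Taurine range. Csad, the decarboxylase of the next step, had 28.5, 27.5 and 32.5 CPM in Taurine and 31.0, 35.4 and 34.5 CPM in Model (−0.19, interval −0.42 to 0.04). Ado, which makes hypotaurine from cysteamine, stood at 48.2 ± 2.70 CPM in Taurine and 45.2 ± 2.01 CPM in Model (SD, n = 3 each; 0.09, interval −0.09 to 0.27). Fmo1, which oxidises hypotaurine to taurine, had a log2 fold change of 0.32 with an interval of −0.27 to 0.90.

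The remaining taurine genes also lay on either side of their untreated level, several with wide intervals. Among the enzymes that feed cysteine into the pathway, Cth lay at −0.05 and Cbs at 0.03 on the log2 scale, both under 2 CPM in all 6 Taurine and Model libraries. Fmo2, a flavin monooxygenase, had 9.61, 3.12 and 27.7 CPM in Taurine and 5.37, 8.46 and 3.14 CPM in Model (1.25, interval −0.42 to 2.92), its highest value falling in the muscle-rich Taurine 3. Gadl1, a decarboxylase related to Csad, lay at 0.21, and Pter, which splits N-acetyltaurine, at −0.05 (interval −0.46 to 0.35). The carriers Slc36a1 (−0.12), Slc16a6 (0.11), Slc26a6 (−0.23) and Slc6a13 (−1.41, interval −5.18 to 2.37) all had overlapping groups. So did Baat, which joins taurine to bile acids (−1.40, interval −5.38 to 2.57), and the glutathione-cleaving Ggt1 (0.77), Ggt5 (−0.12) and Ggt6 (0.07). The summed level of the 18 genes was 460.0 ± 32.9 CPM in Taurine and 450.0 ± 18.6 CPM in Model (SD, n = 3 each). Slc6a6 alone averaged 273 CPM in Taurine and 265 CPM in Model, so the sum says little of the other members.

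The lists of taurine's known uses had median log2 fold changes between −0.05 and 0.09. Lrrc8c, a subunit of the anion channel through which swollen cells release osmolytes, was the only one of 12 osmolyte genes with separate groups. It had 57, 55.4 and 60.1 CPM in Taurine and 45.8, 48.7 and 51.7 CPM in Model (log2 fold change 0.24, 95% interval 0.09 to 0.38, adjusted p = 0.705). Nfat5, the transcription factor of the osmotic response, lay at 0.10 (interval −0.12 to 0.32), and the kinase gene Sgk1 at 0.22 (interval −0.21 to 0.64). The list's median was 0.07. Of 6 genes of the taurine-modified mitochondrial transfer RNAs and their decoding, Mto1, which attaches taurine, was above all Model values at 14.6, 17.0 and 14.7 CPM in Taurine against 14.3, 14.1 and 14.3 CPM in Model. The initiation factor Mtif2 (−0.11) and the formyltransferase Mtfmt (−0.16) were below all Model values, and the intervals of all 3 genes included 0. Of the 13 protein-coding genes of the mitochondrial genome, 11 lay above 0 with a median of 0.09, and 0 had separate groups. The complex I subunit gene mt-Nd6 had 284, 348 and 480.5 CPM in Taurine and 287, 239.7 and 335 CPM in Model, with Taurine 3 highest (0.37, interval −0.01 to 0.75).

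The gene with the smallest p on the lower side was Cdc42ep2, which encodes an effector that links the small GTPase Cdc42 to actin. It had 26.5, 25.9 and 25.6 CPM in Taurine and 38.7, 46.2 and 43.8 CPM in Model. Its log2 fold change was −0.72 (95% interval −0.93 to −0.50, adjusted p = 0.145), and the 3 Taurine libraries lay within 1 CPM of each other. Cdc42se1, another small Cdc42-binding protein, had 97.4, 93.4 and 100.2 CPM in Taurine and 117.8, 117.6 and 122 CPM in Model (−0.30, adjusted p = 0.418). Ankzf1, which frees stalled chains from ribosomes, had 33.0, 32.6 and 33.7 CPM in Taurine and 45.0, 50.3 and 42.0 CPM in Model (−0.47, adjusted p = 0.418). Rarg, the retinoic acid receptor gamma, had 93.2, 91.4 and 95.1 CPM in Taurine and 116, 113 and 114 CPM in Model (−0.30, adjusted p = 0.558). These 4 genes were picked by smallest p among genes with separate groups, so the lack of overlap follows from that choice. Tmsb10, an actin-binding thymosin, averaged 539 ± 56.1 CPM in Taurine and 707 ± 62.8 CPM in Model (−0.39; SD, n = 3 each). Bcl6, a transcriptional repressor, averaged 24.8 ± 2.24 CPM in Taurine and 33.1 ± 1.90 CPM in Model (−0.42). The kinase-like adaptor Nrbp1 (−0.25), the dynein light chain gene Dynlrb1 (−0.21) and the glutathione transferase Gstp1 (−0.26) were the other lower genes of at least 50 CPM chosen by smallest p, beside the globins below, with adjusted p = 0.705 each.

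On the higher side the smallest p belonged to Samd12, a SAM domain protein of low level. It had 0.687, 1.20 and 1.47 CPM in Taurine and 0.216, 0.215 and 0.268 CPM in Model (log2 fold change 2.25, 95% interval 1.59 to 2.91, adjusted p = 0.145), against a mean of 35.6 CPM in normal lung. The Proline libraries had 1.59, 1.04 and 1.11 CPM of Samd12, so only Model was low among the tumours. Wasf3 and Wasl encode activators of the Arp2/3 complex, which branches actin filaments. Wasf3 had 4.42, 3.75 and 2.87 CPM in Taurine and 1.94, 1.72 and 1.5 CPM in Model (1.1, interval 0.62 to 1.58), and Wasl had 74.6, 76.0 and 78.5 CPM in Taurine and 63.8, 62.5 and 65.8 CPM in Model (0.25, interval 0.14 to 0.37). Both had an adjusted p of 0.558. The other genes of this side with separate groups and smallest p differed by similar amounts. They were the Golgi proteins Golm2 (0.33) and Yipf6 (0.29), the cargo receptor Tmed5 (0.37), Cdc73 of the transcription elongation complex PAF1 (0.25) and the bromodomain protein Phip (0.29). The anticoagulant Pros1 (0.29), the integrin subunit Itgav (0.29), the cytokine suppressor Socs4 (0.42) and the metalloprotease inhibitor Reck (0.45) had separate groups as well, and the adjusted p of these 9 genes was 0.558 to 0.705. Of 20 genes of Cdc42, its binding partners and septins, a list drawn up with Cdc42ep2 already seen that holds Wasl but not Wasf3, 3 lay above all Model values (background 5.67%) and 2 below them (background 6.16%). The lower ones were Cdc42ep2 and Cdc42se1, which like Wasl had been picked by smallest p among genes with separate groups. Counts that hold such genes cannot be weighed against the background. The higher ones were Wasl, Cdc42se2 (0.12) and Septin7, a filament protein of the cell cortex, at 307 ± 4.10 CPM in Taurine and 274 ± 19.4 CPM in Model (SD, n = 3 each).

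**Figure D3:**
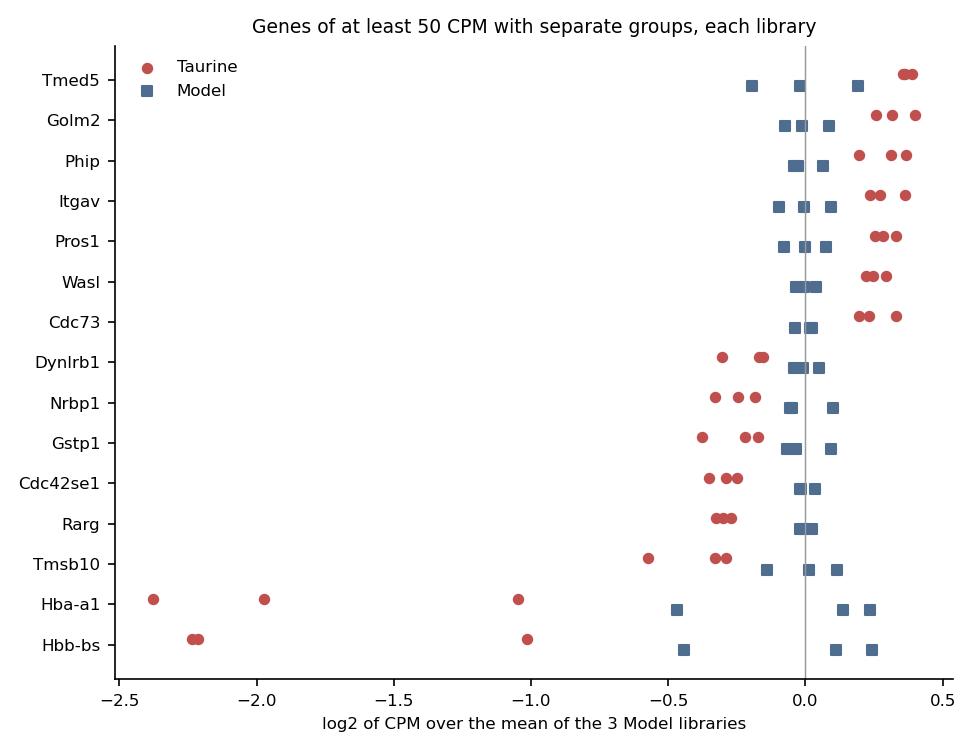
Log2 of each library's CPM over the mean of the 3 Model libraries, for 7 higher and 8 lower genes chosen by smallest unadjusted p among those with a mean of at least 50 CPM and separate groups, Taurine as red circles and Model as blue squares, 1 point per library. Apart from the globins Hba-a1 and Hbb-bs, with log2 fold changes of −1.69 and −1.70, the genes lie within 0.6 of the Model mean.

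Genes on either side also differed in the make-up of their transcripts. The analysis takes the longest GENCODE transcript of each gene, and 22341 of the 23191 tested genes had one. Among genes of at least 5 CPM with separate groups and an unadjusted p under 0.01, the 88 higher ones had a median length of 5191.5 bases and a median GC content of 43.5%. The 69 lower ones had 2344 bases and 53.9%, and all 11528 genes of that level 3370 bases and 49.7%. In 5 equal bins of those genes from short to long, the median log2 fold change was −0.04, −0.01, 0.01, 0.03 and 0.08. From low to high GC content it was 0.07, 0.04, 0.0044, −0.03 and −0.02. The length trend was steepest in Taurine 3, whose deviation from the Model mean ran from −0.12 for the shortest to 0.13 for the longest bin. A correction of each library for length and GC content was chosen after seeing the data and fitted on the 9 tumour libraries. With it the bins lay between −0.0012 and 0.02, which follows from the correction itself, since it takes out these trends. Genes at an unadjusted p under 0.05 then numbered 1048, where the 9 libraries without the correction had 1225. Cdc42ep2 kept a log2 fold change of −0.71, and Wasl had 0.20. Others moved closer to 0. Cdc73 lay at 0.08, Phip at 0.14, Septin7 at 0.07, Lrrc8c at 0.15, Dynlrb1 at −0.11 and Gstp1 at −0.15, and none of these 6 then stood at an unadjusted p under 0.05.

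**Figure D4:**
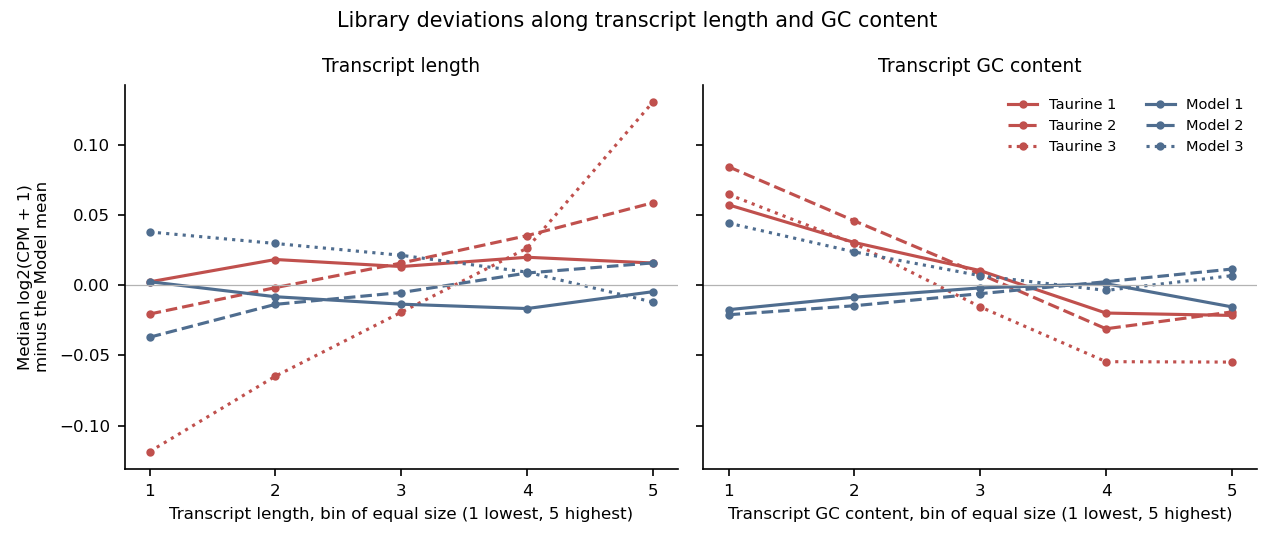
Median over genes of log2(CPM + 1) minus the Model mean, for 5 equal bins of 11528 genes by transcript length (left) and GC content (right), 1 line per library, Taurine red and Model blue. The Taurine 3 line runs from −0.12 to 0.13 along length, and all 3 Taurine lines lie above 0 at the lowest GC content and below 0 at the highest.

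Globin transcripts had lower values in every Taurine library than in any Model library. Mature red cells of mammals lose their nucleus but carry leftover globin messages. Of 9 tested genes of the erythroid list, 5 were below all Model values (background 6.16%), 8 lay below 0 and the median log2 fold change was −1.69. Hbb-bs, a beta globin, had 19.6, 45.6 and 19.9 CPM in Taurine and 99.4, 108.9 and 67.8 CPM in Model. Hba-a1, an alpha globin, had 20.2, 38.3 and 15.2 CPM in Taurine and 87.2, 93.1 and 57.3 CPM in Model. Their log2 fold changes were −1.70 (95% interval −2.47 to −0.93, adjusted p = 0.558) and −1.69 (interval −2.52 to −0.85, adjusted p = 0.631). Every Model library was above every Taurine library. The summed liver level of Model 3, 68.1 CPM, lay within the range of the Taurine libraries, and those of Model 1 and 2 lay above it. The part of liver or other tissue in the globin values was not tested. In Proline, Hbb-bs had 89.0, 74.85 and 83.7 CPM, near the Model values. Hbb-bt lay at −1.70 and Hba-a2 at −1.70, and these are near copies whose counts may share reads: the longest transcripts of Hba-a1 and Hba-a2 were identical at 99.8% of 538 aligned bases, and those of Hbb-bs and Hbb-bt at 95% of 582. Alas2, the first enzyme of haem synthesis in red-cell precursors, was picked out after its values were seen. It had 1.26, 1.95 and 0.469 CPM in Taurine and 4.07, 5.31 and 2.37 CPM in Model (−1.67, interval −2.73 to −0.62). In bulk samples, fewer cells of a type and less RNA per cell cannot be told apart. Without Model 1 and 2, a setting chosen after seeing the data that leaves 1 Model library, the log2 fold change of Hbb-bs was −1.26 and the list's median −1.13, and without Taurine 3 as well they were −1.06 and −0.91.

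The promoters of 3 of these genes are shown because alpha globin, beta globin and haem synthesis genes lie on different chromosomes and all had separate groups. Each is the 250 bases before the start in RefSeq's table (GRCm38.p6), 5′ to 3′ on the gene's strand. Capitals mark AGATAA, a spelling bound by the erythroid factor GATA1, then CCAAT with TATAA and also CACCC, on either strand, where overlapping matches run together. Other spellings that GATA1 binds were not searched for and stay in lower case, such as tgataa in the Hba-a1 window. Hbb-bs lies at chr7:103827929-103828178 on the minus strand, Hba-a1 at chr11:32283422-32283671 on the plus strand and Alas2 at chrX:150547167-150547416 on the plus strand.
Hbb-bs: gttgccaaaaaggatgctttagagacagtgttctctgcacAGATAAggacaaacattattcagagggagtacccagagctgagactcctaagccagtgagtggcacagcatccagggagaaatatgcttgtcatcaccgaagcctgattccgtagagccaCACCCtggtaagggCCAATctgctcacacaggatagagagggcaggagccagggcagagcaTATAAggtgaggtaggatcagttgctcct
Hba-a1: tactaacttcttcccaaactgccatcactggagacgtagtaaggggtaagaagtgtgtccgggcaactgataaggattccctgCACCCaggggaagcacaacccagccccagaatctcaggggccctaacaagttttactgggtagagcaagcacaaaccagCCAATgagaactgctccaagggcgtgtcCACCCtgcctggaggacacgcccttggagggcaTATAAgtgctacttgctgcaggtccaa
Alas2: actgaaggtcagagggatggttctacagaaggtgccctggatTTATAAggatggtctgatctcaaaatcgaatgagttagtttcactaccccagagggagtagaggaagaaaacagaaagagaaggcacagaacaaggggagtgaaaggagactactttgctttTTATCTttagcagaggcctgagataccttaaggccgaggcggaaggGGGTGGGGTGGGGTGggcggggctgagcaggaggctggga

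Both globin windows held CCAAT together with CACCC and with TATAA, and the TATAA match was 29 bases before the start in Hbb-bs and 27 in Hba-a1. Of 32851 windows of the same length, 33.8% held CCAAT on some strand, 22.8% held TATAA and 52% held CACCC, and 3.28% held all 3. AGATAA was in the Hbb-bs window and, on the other strand, in the Alas2 window, and in 9.99% of all windows. That share is for AGATAA alone and leaves out other spellings bound by GATA1. A match is a description of the letters and says nothing on whether a factor binds there.

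Lymphocyte transcripts were also low in the Taurine libraries, but here the Model libraries differed among themselves. All 20 T-cell genes lay below 0 with a median of −1.58, yet 1 of them was below all Model values. That gene, Cd8a, the co-receptor of cytotoxic T cells, had 0.936, 0.262 and 0.136 CPM in Taurine and 5.58, 2.47 and 0.994 CPM in Model (log2 fold change −2.75, 95% interval −5.22 to −0.29). The summed T-cell level was 24.6, 7.91 and 10.4 CPM in Taurine and 84.0, 32.7 and 15.7 CPM in Model, so Taurine 1 lay above Model 3. Cd5, a T-cell surface receptor, had 0 counts in all Taurine libraries and 2.10, 0.516 and 0 CPM in Model, so Model 3 was at 0 as well. Cd3d (−4.04) and Cd2 (−1.66) had overlapping groups as well. Model 1, with the highest T-cell level, also had the highest summed level of the thymocyte list, 16.4 CPM, where the other 5 libraries had 7.01 to 9.61 CPM. Without Model 1 the T-cell median was −0.74, without Model 1 and 2 −0.24, and without Taurine 3 as well −0.03. Of 15 B-cell and plasma-cell genes, 14 lay below 0 with a median of −1.24, and 4 were below all Model values (background 6.16%). Igkc, the constant part of the kappa light chain, had 34.8, 7.40 and 12.1 CPM in Taurine and 71.2, 64.0 and 36.8 CPM in Model (−1.66, interval −2.98 to −0.35). Jchain, which links antibody units, had 7.12, 2.26 and 3.16 CPM in Taurine and 11.1, 9.49 and 7.78 CPM in Model (−1.18, interval −2.16 to −0.19). Ighd (−1.76) and Ms4a1, the B-cell surface protein CD20 (−1.33), were the other members below all Model values, whereas the groups of Cr2 (−3.09) and Ighm (−0.97) overlapped. Outside the list, H2-Ob, a class II chaperone gene of B cells, had separate groups (−1.82). S1pr4, a lysolipid receptor of lymphoid cells, had 0.482, 0.277 and 0.302 CPM in Taurine and 2.96, 0.516 and 0.695 CPM in Model, with Model 1 far above the others. Its log2 fold change was −1.97, and −0.77 without Model 1. Without Model 1 and 2 the B-cell median was −0.63, and without Taurine 3 as well −0.44.

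Granzymes had a higher summed level in Taurine than in Model, and so they did in Proline. Their summed level averaged 15.95 ± 8.08 CPM in Taurine, 3.86 ± 2.09 CPM in Model and 35.7 ± 11.05 CPM in Proline (SD, n = 3 each). In Proline, Gzmc averaged 3.92 CPM, Gzmd 1.75 CPM, Gzme 0.809 CPM and Gzmf 2.55 CPM. The granzyme cluster list, serine proteases of cytotoxic granules, had 9 tested genes, of which 3 were above all Model values (background 5.67%), 7 lay above 0 and the median log2 fold change was 2.58. The other 2 lay below 0, down to −1.16, and the granzymes named here all lay above 0. Gzmc had 2.06, 3.77 and 6.61 CPM in Taurine and 0.262, 0.115 and 1.70 CPM in Model (2.58, 95% interval 0.11 to 5.05, adjusted p = 0.711). Gzmd had 0.424, 1.75 and 3.57 CPM in Taurine and 0.339, 0 and 0.395 CPM in Model. Gzme had 0.380, 0.415 and 1.25 CPM in Taurine and 0 counts in Model, at least 45-fold higher against 3 counts over the group. Gzmf (3.65) overlapped. Among the Taurine and Model libraries, Taurine 3 was highest for all 4 of these genes. Without Model 1 and 2 the list's median was 1.60, and without Taurine 3 as well 0.80. The 4 genes are close copies: Gzmd and Gzme transcripts were identical at 93.5% of 928 aligned bases and the other pairs among Gzmc to Gzmf at 84% to 86.7%, so reads may be shared between them. Gzmb, the granzyme typical of killer T cells, had 4.08, 2.40 and 1.69 CPM in Taurine and 0.987, 0.832 and 1.86 CPM in Model, with overlap (1.15, interval −0.12 to 2.42). Of the 17 cytotoxic and natural killer genes, 1 had separate groups, 11 lay above 0 and 6 below, down to −1.16, and the median was 0.07. With 1 library left out that median ran from −0.32 to 0.36. The members named here all lay above 0, so they do not stand for the list. The member with separate groups was Eomes, a transcription factor of killer cells, at 0.775, 0.446 and 1.04 CPM in Taurine and 0.170, 0 and 0.174 CPM in Model (2.71, interval 0.86 to 4.56). Eomes averaged 0.725 ± 0.0271 CPM in Proline (SD, n = 3). Prf1, the pore-forming perforin, had 0.863, 2.31 and 2.87 CPM in Taurine and 0.910, 0.258 and 0.442 CPM in Model (1.91, interval 0.76 to 3.05). Its Proline mean was 1.97 ± 0.357 CPM (SD, n = 3). The natural killer receptor gene Ncr1 lay at 2.70.

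Macrophage and platelet genes showed a few separate groups. Of 11 tested genes of the alveolar macrophage list, 3 were below (background 6.16%) and 1 above all Model values (background 5.67%). Marco, a scavenger receptor of macrophages, had 18.2, 14.1 and 25.6 CPM in Taurine and 42.0, 58.2 and 34.5 CPM in Model (log2 fold change −1.22, 95% interval −1.78 to −0.65, adjusted p = 0.558). Marco was low in Proline as well, at 16.7 ± 3.31 CPM (SD, n = 3). Of 15 tumour-macrophage genes 13 lay below 0 with a median of −0.17, and Spp1, the secreted phosphoprotein osteopontin, was above all Model values (0.35). Cd68, a lysosomal protein of macrophages, was the only one below them, at 86.8 ± 12.2 CPM in Taurine and 109.5 ± 3.52 CPM in Model (−0.34; SD, n = 3 each). The complement genes C1qb (−0.25) and C1qc (−0.18) and the growth factor receptor Csf1r (−0.23) had intervals that included 0. Siglecf, a sialic acid receptor of alveolar macrophages and eosinophils, was without a count in the Taurine libraries, at least 11.4-fold lower, and the ribonuclease gene Ear2 was the third lower one (−2.18). Plet1 was the 1 above, at 1.51, 1.28 and 0.952 CPM in Taurine and 0.447, 0.660 and 0.395 CPM in Model (1.31). Of 13 neutrophil genes 12 lay below 0 with a median of −0.60, and 0 had separate groups. Their summed level was highest in Model 1, and without it the median was −0.20. Of 10 platelet genes, the chemokine Pf4 (−0.59) was below and the receptor subunit Gp1bb (3.22) above all Model values, and the integrin Itga2b (0.61) overlapped.

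**Figure D5:**
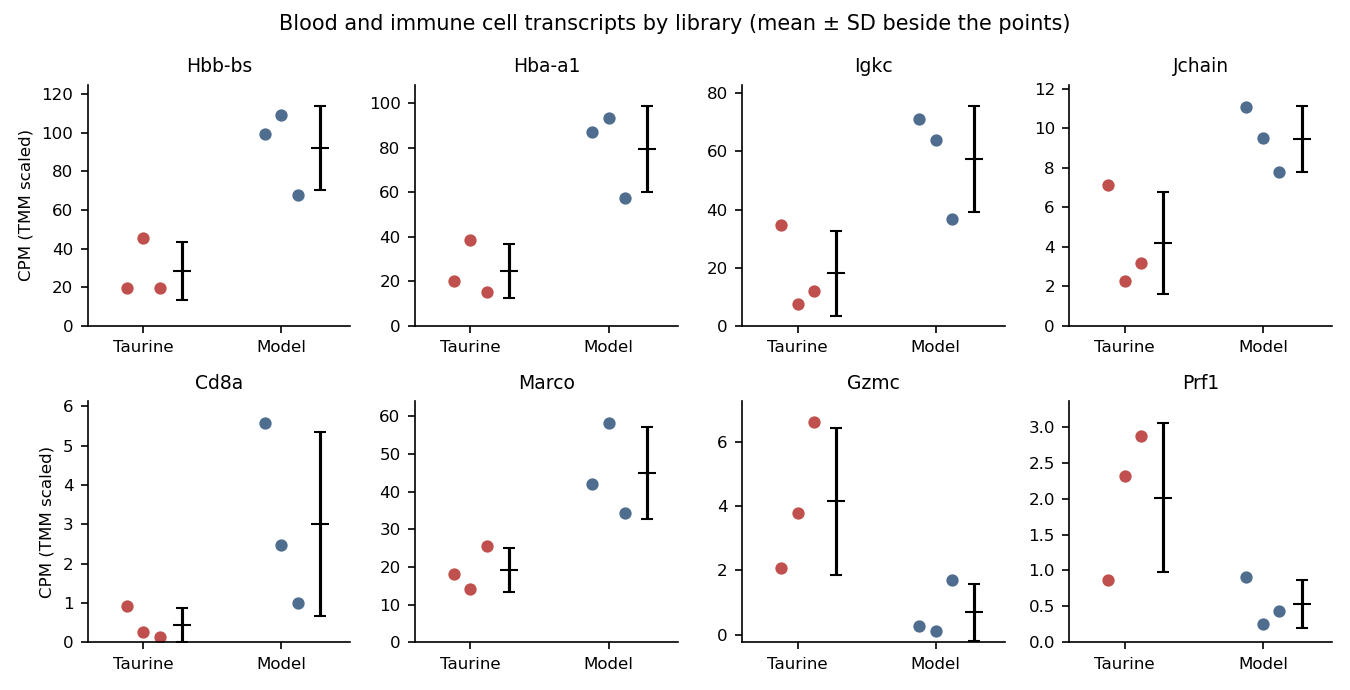
CPM of 8 blood and immune cell genes in each library, Taurine in red on the left and Model in blue on the right, with the mean ± SD of each group of 3 as a bar beside the points. The globin genes Hbb-bs and Hba-a1 are separate with the lowest Model value at 57.3 CPM for Hba-a1 and the highest Taurine value at 45.6 CPM for Hbb-bs, whereas Prf1 overlaps between the groups.

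Growth and energy genes differed little. Of 24 proliferation genes, 16 lay above 0, 1 was above all Model values and the median was 0.05. That gene was the replication helicase subunit Mcm4, at 127, 105 and 100.9 CPM in Taurine and 99.7, 92.5 and 100.4 CPM in Model (log2 fold change 0.19, 95% interval −0.04 to 0.41). The mitotic gene Cdca8 lay at 0.24 (interval −0.07 to 0.54). Of 18 glycolysis genes 14 lay below 0 with a median of −0.08 and 0 separate groups. Ldha, which makes lactate, had 1532, 1809 and 1386 CPM in Taurine and 1786, 1727 and 1743 CPM in Model (−0.15), the glucose transporter Slc2a1 lay at −0.31, Pfkfb3 at −0.30 and Pkm at −0.07, all with intervals that included 0. Hypoxia-response genes lay below 0 for 10 of 13 members with a median of −0.16, which was 0.045 without Taurine 1. Ankrd37, a target of the hypoxia factor HIF1, was the only one below all Model values, at 2.70, 4.62 and 4.04 CPM in Taurine and 7.55, 10.7 and 8.81 CPM in Model (−1.25, interval −1.95 to −0.56, adjusted p = 0.705). Vegfa, the vessel growth factor, lay at −0.38 and Egln3, a HIF hydroxylase, at −0.28. Of 24 nuclear genes of oxidative phosphorylation, 16 lay above 0 with a median of 0.02, and Sdhc of complex II was the 1 below all Model values (−0.17).

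Stress and death genes gave single members rather than groups. Gdf15, a stress cytokine, had 0.409, 0.6 and 0.272 CPM in Taurine and 1.33, 1.03 and 1.17 CPM in Model (log2 fold change −1.46, 95% interval −2.68 to −0.23). It was the 1 of 18 p53 and apoptosis genes below all Model values, the list's median was 0.08, and the p53 ligase Mdm2 lay at 0.18. Among 20 antioxidant genes 3 were above (background 5.67%) and 1 below all Model values (background 6.16%) with a median of 0.0003. Hmox1, the haem-degrading oxygenase, had 181, 252 and 188 CPM in Taurine and 490.5, 208 and 363 CPM in Model, overlapping through Model 2 (−0.77). The separate groups were those of the lipid enzyme Acsl4 (0.24), the sulphiredoxin Srxn1 (0.20), the thioredoxin reductase Txnrd1 (0.14) and the superoxide dismutase Sod1 (−0.05). The ferritin chain Fth1 lay at −0.18. Of 20 genes of mTORC1 and the lysosome, Tfe3, a transcription factor of lysosome genes (−0.22), and the protease Ctsd (−0.26) were below all Model values, and the median was 0.03. Herpud1, of endoplasmic reticulum stress, averaged 29.1 ± 4.0 CPM in Taurine and 37.2 ± 3.63 CPM in Model (−0.35; SD, n = 3 each). Ddit4, which restrains mTORC1, lay at −0.39 with an interval of −1.15 to 0.37. The early response gene Ier3 had 32.6, 47.2 and 32.8 CPM in Taurine and 58.1, 48.5 and 75.3 CPM in Model (−0.69). Arc, an early gene of active neurons, had 39 counts in all in Taurine and 0 in Model, at least 12.9-fold higher. The Proline libraries had 0.394, 0.384 and 0.813 CPM of Arc.

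Few matrix, Wnt and antigen-presentation genes had separate groups. Of 23 collagen and matrix genes 18 lay above 0 with a median of 0.08, and the adhesive glycoprotein gene Tnc (0.55) was above and the collagen crosslinker Loxl2 (−0.40) below all Model values. Fibronectin, encoded by Fn1, averaged 4474 ± 669 CPM in Taurine and 3855 ± 225 CPM in Model (SD, n = 3 each; 0.22), and Col3a1 lay at 0.08. Znrf3, a ligase that removes Wnt receptors and is itself switched on by Wnt signalling, was the 1 of 13 Wnt genes with separate groups. It had 20.6, 16.5 and 20.1 CPM in Taurine and 10.9, 10.3 and 14.2 CPM in Model (log2 fold change 0.69, 95% interval 0.34 to 1.04, adjusted p = 0.644). The cyclin Ccnd1 lay at 0.17. Members of the Wnt list ran from −1.41 to 6.09 with a median of 0.14, which was 0 to 0.39 with 1 library left out. Rspo1, which blocks Znrf3 to raise Wnt signalling, had 0.629, 0.892 and 1.92 CPM in Taurine and 0.154, 0.0860 and 0.0947 CPM in Model (3.34). Class I presentation genes had a median of −0.06 and all 7 class II genes lay below 0 with a median of −0.27, with 0 separate groups in either list. Without Model 1 the class II median was 0.099, and without Taurine 2 it was 0.096. H2-K1 lay at −0.16, and Cd74, the class II invariant chain, had 114, 23.2 and 60.8 CPM in Taurine and 116, 83.6 and 39.4 CPM in Model (−0.27, interval −2.0 to 1.46). Of 23 interferon-response genes 16 lay below 0 with a median of −0.12, which was 0.060 without Taurine 2, and the RNA sensor gene Rigi lay at −0.24. Of 17 circadian clock genes, the repressors Ciart (−0.80), Bhlhe40 (−0.39) and Bhlhe41 (−0.39) were below all Model values (background 6.16%), and the median was −0.01.

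Fold changes were also ranked among genes with separate groups, a mean of at least 1 CPM in the higher group and an unadjusted p under 0.05. On the lower side the liver genes Serpina1a (log2 fold change −8.49), Serpina1c (−8.36) and Apoc3 (−7.14) led, each above 3.9 CPM in Model 1 and 2 and at most 0.126 CPM in Model 3 and the Taurine libraries. Cd8a, S1pr4, H2-Ob and the beta globins followed. The higher ones included the muscle LIM protein gene Csrp3, at 3.26, 3.43 and 44.8 CPM in Taurine and 2.62, 1.94 and 0.979 CPM in Model. The chemokine Cxcl14 stood beside it, at 6.54, 5.09 and 25.9 CPM in Taurine and 3.19, 2.80 and 2.13 CPM in Model. Cxcl14 had 7.67, 15.7 and 12.1 CPM in Proline. For both Csrp3 and Cxcl14 the highest value was in Taurine 3, as for the skeletal muscle genes. Without Taurine 3 their log2 fold changes of 3.22 and 2.21 were 0.86 and 1.1. Rspo1 (3.34) had the largest fold change of this side, and the protocadherin Pcdhga11 (2.53), the glutamate receptor subunit Grin3b (2.23), Samd12 and the granzymes Gzmc and Gzmd made up the others.

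Taurine against Proline tests whether a gene stood differently in tumours given either amino acid. By edgeR's quasi-likelihood test, 10 of 23191 genes (0.0431%) passed, 7 higher and 3 lower in Taurine, with adjusted p = 0.0421 to 0.04997. With median-ratio scaling, without the filter on low counts, or with the 9 tumour libraries alone, 0 genes passed, and leaving out any 1 Model library, Taurine 3, Proline 1 or Proline 2 also gave 0. Without Proline 3 the count was 336, and without Taurine 1 it was 63. Apart from Wasf3, the genes of this contrast named here were chosen after their values were seen. Wasf3 was higher in Taurine than in Proline, at 4.42, 3.75 and 2.87 CPM in Taurine and 0.940, 1.41 and 0.956 CPM in Proline (log2 fold change 1.74, adjusted p = 0.0421). Its Model values of 1.94, 1.72 and 1.5 CPM lay between those of the Taurine and Proline libraries. Dennd1b, a regulator of vesicle traffic, had 66.9 ± 2.83 CPM in Taurine and 47.1 ± 1.91 CPM in Proline, and Stx17, a fusion protein of autophagosomes, 77.8 ± 3.98 CPM in Taurine and 55.0 ± 0.523 CPM in Proline (SD, n = 3 each). Model averaged 59.6 CPM of Dennd1b and 68.5 CPM of Stx17. The cytoplasmic actin gene Actg1 was lower in Taurine than in Proline, at 1331, 1389 and 1208 CPM in Taurine and 1990, 1910 and 1889 CPM in Proline (−0.56). Model, at 1334, 1436 and 1503 CPM, lay near the Taurine values and below the Proline ones. Snx20, a sorting protein of leukocytes, had 4.55, 3.12 and 3.22 CPM in Taurine and 8.96, 11.4 and 8.99 CPM in Proline (−1.43), with Model at 6.18, 4.72 and 6.20 CPM. Taurine and Proline were both compared with the same Model libraries. Of the genes named by smallest p, largest fold change or taurine function against Model, Wasf3 was the only one to pass here. Cdc42ep2 had an adjusted p of 0.115 and Hbb-bs of 0.119.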

How the data were processed

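RNA was extracted with the Rneasy mini plus kit and libraries were made with the SMARTER mRNA-Seq kit, per the labels' protocols. The deposited table holds raw read counts and FPKM per gene for 12 libraries, per the file headers. The submitters' processing notes name mm10, and the sources used here do not give the aligner, the counter or whether strand was used, so antisense and copied genes may share reads. No positions from the table are printed. Library totals were 56542745 to 69456490 counts.

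The deposited counts were filtered with filterByExpr, scaled with TMM and tested with edgeR 4.0.16 (R 4.3.3), a quasi-likelihood fit on all 12 libraries with 1 term per group, two-sided, Benjamini-Hochberg adjusted with a threshold of 0.05. Genes varied between replicates with a common coefficient of 0.437. The code was tested on simulated counts. Intervals are 95% from the fit's standard error, and a group at 0 was set to 3 counts over the group, which covers counting error only. Alternatives used DESeq2 1.42.0, limma 3.58.1 with voom, and limma on log2(FPKM + 1) and log2(FPKM + 0.1) of the deposited FPKM values.

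Named genes leave out predicted genes, pseudogenes and immune receptor segments. They are, per direction, the 10 of smallest p with separate groups and at least 1 CPM in the higher group, the 8 of smallest p with a mean of at least 50 CPM and separate groups, and the 8 of largest fold change at an unadjusted p under 0.05 with separate groups and at least 1 CPM in the higher group. A few genes that this rule or a list would include are not reported here. The taurine genes and, per list, up to 4 members of smallest p and the most abundant member could be named. Where a list had 5 or fewer separate members, those outside the rule (Alas2, Ms4a1, Cdc42se2, Spp1, Ear2, Tnc, Loxl2, Bhlhe40, Txnrd1 and Sod1) were named after their values were seen. Members and the 60 gene lists (801 of 802 symbols matched) were chosen with earlier results of these data known, and 0 lists had a member that passed.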

Additional observations from a re-analysis of the deposited data

Results flagged for a closer look

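Taurine against Proline, the test of the difference between the responses to the 2 amino acids, passed in 10 genes. On the log2 scale, Taurine minus Proline, the difference was 1.74 for Wasf3, 0.66 for Entpd4b, 0.64 for Tgfbr3, 0.61 for Trp53inp2, 0.57 for Dclk2, 0.51 for Dennd1b and 0.50 for Stx17. It was −0.56 for Actg1, −1.43 for Snx20 and −3.61 for Spmip6. Tgfbr3, a co-receptor of the TGF-beta family, had 392.5, 491 and 457 CPM in Taurine and 286, 280.3 and 295 CPM in Proline, with Model at 390.3, 421 and 379 CPM. Trp53inp2, a regulator of autophagy, had 53.4, 55.5 and 57.9 CPM in Taurine and 30.9, 37.8 and 40.2 CPM in Proline. Its Model values of 58.4, 55.4 and 54.5 CPM were near those of Taurine. Dclk2, a doublecortin-like kinase, had 109.5 ± 1.08 CPM in Taurine, 73.7 ± 4.43 CPM in Proline and 99.6 ± 9.22 CPM in Model (SD, n = 3 each). Entpd4b, which has a near copy in Entpd4 that may share its reads, had 57, 71.9 and 66.3 CPM in Taurine and 41.4, 38.4 and 43.9 CPM in Proline. Model had 67.6, 72.7 and 64.0 CPM of Entpd4b, near the Taurine values. Spmip6 was at 0.0454 CPM or less in Taurine and at 0.349, 0.414 and 0.399 CPM in Proline, with Model at 0.0617, 0.0717 and 0.04735 CPM. The cause of these differences was not tested.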

How the results depend on the processing

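No paired analysis was possible because the labels give the groups no shared replicate numbers. Against Model, 0 genes passed with median-ratio or upper-quartile scaling, with no filter or a stricter one, with robust estimation, with voom, or with the 9 tumour or the 6 Taurine and Model libraries alone. DESeq2 called 88, limma 2 on log2(FPKM + 1) and 1 on log2(FPKM + 0.1), and leaving out 1 library gave 0 to 7, with 7 without Model 3 and 1, Samd12, without Taurine 1. Another 4 settings were chosen after seeing the data. Without Model 1 and 2 together 1 gene passed and 942 stood at an unadjusted p under 0.05, and without Taurine 3 as well 3 passed and 880 stood there. With a term for the libraries with over 10 CPM of Kap (Taurine 1, Taurine 2 and Model 3) 1 passed and 1880 stood there, and with the length and GC correction 0 and 1048. Zfp1003, called with both sets of libraries left out, had 0.189 CPM in Model 3, the 1 Model library kept there, and 9.69 CPM or more in the other 5 libraries. The count of genes with separate groups was 4528 to 5531 with 1 library left out, where fewer libraries have to be separate. Against Proline, 0 genes passed with median-ratio scaling, without a filter, with the 9 tumour libraries, and in both settings that left out Model 1 and 2, whereas DESeq2 called 1075 and voom 47. No alternative for Taurine against Proline had been planned beforehand, and leaving out Proline libraries was chosen after seeing the data. Leaving out 1 Taurine, Model or Proline library gave 0 to 336. The cause was not tested.

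Of 2896 log2 fold changes of named genes under the alternatives, 52 changed sign, all against Model, where 0 genes passed in the reported fit. Another 34 passed where the reported fit did not, 33 of them by DESeq2. A further 121 no longer passed, all of them for Taurine against Proline. With 1 library left out, the log2 fold change ran from −0.086 to 0.38 for Gadl1, −0.0057 to 0.11 for Slc6a6, −0.029 to 0.24 for Slc16a6, −0.14 to 0.023 for Pter, −1.02 to 0.23 for Ggt5, −1.41 to 0.65 for Ggt6, −0.27 to 0.17 for Cth, −0.18 to 0.25 for Cbs, −0.023 to 0.17 for Col3a1 and −0.92 to 0.13 for Cd74. Without Model 1 and 2 it was 0.065 for Slc36a1, −0.13 for Slc16a6, 5.42 for Baat, −0.43 for Ggt1, 0.23 for Ggt5, −0.22 for Cbs, 0.28 for Ighm, 0.12 for H2-K1 and 0.74 for Cd74. Without Taurine 3 as well it was −0.28 for Gadl1, 0.048 for Slc36a1, −0.10 for Slc16a6, 5.18 for Baat, −0.81 for Ggt6, −0.39 for Cbs, −0.085 for mt-Nd6, 0.35 for Ighm, 0.00042 for Csf1r, 0.22 for H2-K1 and 0.80 for Cd74. With the kidney term it was 0.53 for Baat, −0.11 for Ggt1, 0.015 for Ggt5 and 0.040 for Cd74. By voom it was −1.19 for Ggt6, 0.049 for Cth and −0.12 for Cbs. On log2(FPKM + 1) it was −0.00046 for Cbs, and on log2(FPKM + 0.1) −0.059 for Ggt6 and −0.0040 for Cbs. With the length and GC correction it was −0.020 for Cbs and −0.062 for Nfat5. Of 525 list medians under the alternatives, 68 moved by more than the spread between libraries and 64 changed sign, with no sign change for the erythroid, T-cell, B-cell or granzyme lists.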
